A study of Mus musculus with 12 samples.

Results

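The hippocampus of mice that lack FIRE, an enhancer in an intron of *Csf1r*, was compared with the hippocampus of wild-type mice on expression arrays. The comparison rests on 6 of the 12 arrays of the series, 3 labelled FIRE -/- and 3 labelled FIRE +/+, chosen by tissue and genotype alone. All mice were 6 weeks old, of the strain labelled C57BL/6J/CBA and perfused with saline before the tissue was taken. Each genotype held mice labelled male and mice labelled female. The FIRE -/- mice, called Csf1r ΔFIRE/ΔFIRE in the study, carry the deletion in the germline and therefore in every cell. No agent was given to either group. The other 6 arrays hold the ileum with Peyer's patches of the same genotypes, also 3 and 3.

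CSF1R is the receptor for the growth factors CSF1 and IL-34, and microglia, the resident macrophages of the brain parenchyma, need its signal to develop and survive. Microglia express a set of genes that neurons, astrocytes and oligodendrocytes lack or hardly express, among them receptors for nucleotides, complement, antibodies and microbial products. Their transcripts can be followed in RNA from the whole tissue. In such RNA, fewer cells of a type and less RNA per cell cannot be told apart.

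Every value below is a deposited RMA log2 signal of 1 transcript cluster, the probes of 1 gene on the array, or a difference of such signals, FIRE -/- minus FIRE +/+, called the log2 change. A signed value in parentheses after a gene is its log2 change. The test ran over the 21218 of 35556 clusters that name exactly 1 gene. RMA gives no detection call, so a low signal shows neither presence nor absence. The array medians over all clusters ran from 4.29 to 4.46, and the hippocampus arrays correlated with each other at r from 0.991 to 0.996. The tissue label fitted the signals of the neuronal markers *Snap25* (12.31 to 12.40) and *Slc17a7* (11.53 to 11.86) and of *Prox1*, a marker of dentate granule cells (8.18 to 8.56). The FIRE +/+ arrays E07 and F07 and the FIRE -/- array A09 were labelled male. The FIRE +/+ array G07 and the FIRE -/- arrays B09 and H07 were labelled female. Array B09, labelled female, had readings of *Xist* and of 2 Y-linked genes close to those of the labelled males. The fit with sex as labelled took B09 as female. The arrays also carry a code number, 07 for the 3 FIRE +/+ arrays and the FIRE -/- array H07 and 09 for the FIRE -/- arrays A09 and B09, whose meaning is not given.

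In FIRE -/- hippocampus 95 clusters, each of a different gene, fell at an adjusted p under 0.05, which is 0.448% of the clusters tested, and none rose (0%). They included the receptor gene *Csf1r*, transcription factors of its lineage and genes of complement, purine and Fc receptors, Toll-like receptors, lysosomal proteins and the actin regulators of haematopoietic cells. Their median log2 change was -1.36, where the median of all clusters was 0.01. At least 2-fold falls were found in 79 of them, at least 4-fold falls in 30 and at least 8-fold falls in 11. In 69 clusters every FIRE -/- array read below its own median, *Csf1r* among them, and with no detection call these folds are ratios of RMA signal that may understate a change in RNA. Without array B09 the count was 71, of which 70 were among the 95. With the code number, which only H07 separates from genotype, as a block it was 62, of which 58 were among the 95. At an adjusted p under 0.1 there were 104 lower and 0 higher clusters, and at an unadjusted p under 0.05 there were 625 lower and 379 higher.

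The mean signal over the 95 clusters was 5.64, 5.63 and 5.53 on the FIRE +/+ arrays E07, F07 and G07. It was 3.91, 3.88 and 3.79 on the FIRE -/- arrays A09, B09 and H07. The arrays of each genotype lay close together, which the choice of the clusters by these same arrays favours, so it says nothing of the code number. In all 95 clusters every FIRE -/- array read below every FIRE +/+ array, as the arrays of the genotypes did in 5.2% of all clusters. In 73 clusters the FIRE -/- mean lay below 4.33, the mean of the array medians. The other 22 kept a signal above it, among them *Olfml3* at 6.39, *Entpd1* at 6.38, *Cyba* at 6.14, *Cd68* at 5.69 and *C1qb* at 5.57.

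**Figure D1:**
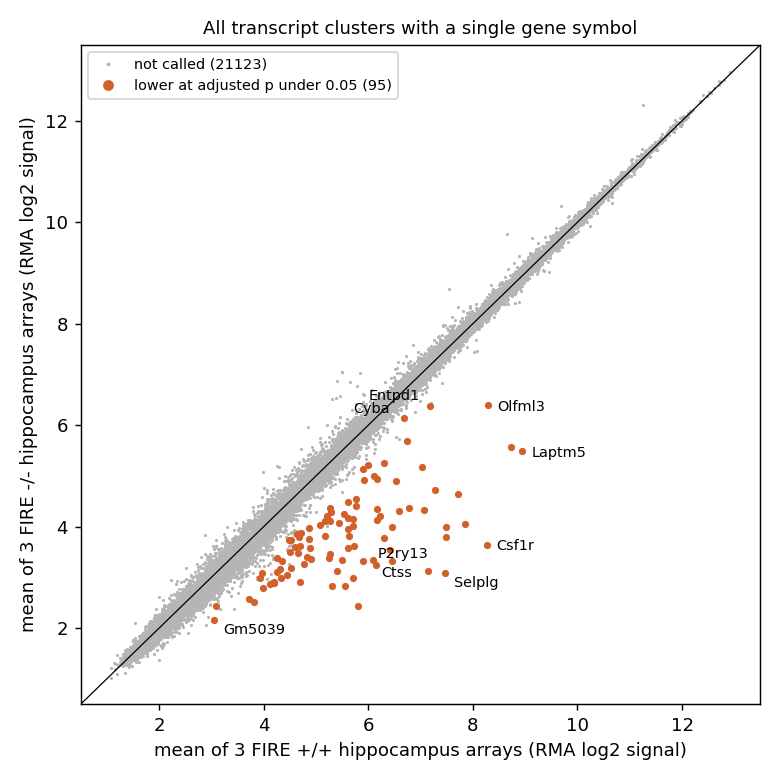
Mean RMA log2 signal of each of the 21218 tested clusters on the 3 FIRE +/+ arrays (x axis) and the 3 FIRE -/- arrays (y axis) of the hippocampus. The line marks equal signal. The 95 clusters that fell lie below the line, from *Csf1r* at 8.27 and 3.64 to *Cyba* at 6.68 and 6.14, and no cluster above the line passed the test.

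*Csf1r* had the largest log2 change of all clusters. It read 8.34, 8.31 and 8.15 on the FIRE +/+ arrays and 3.58, 3.69 and 3.65 on the FIRE -/- arrays. The log2 change of -4.63 (standard error 0.09, adjusted p = 8.77e-07) was a 24.7-fold fall, and the cluster measures the transcript of the gene whose enhancer was deleted. The change lay between -4.69 and -4.59 when any 1 of the 6 arrays was left out, and at -4.65 without B09. Neither ligand gene passed, with *Csf1* at 0.17 (standard error 0.10) and *Il34* at 0.11 (standard error 0.09).

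Of 16 measured transcription factors of the macrophage and haematopoietic lineages, 5 fell, none rose and 11 did not pass, with a median log2 change of -0.27. *Spi1* encodes PU.1, the master regulator of the myeloid lineage, and read 5.51, 5.29 and 5.43 in FIRE +/+ against 3.0, 3.25 and 3.13 in FIRE -/- hippocampus. It fell 4.86-fold (adjusted p = 4.03e-05). *Irf8*, which encodes a partner of PU.1 that microglia need, read 5.58, 5.70 and 5.57 against 3.78, 4.11 and 3.98 (3.16-fold, adjusted p = 0.000325). The groups did not overlap in either gene, as in all 95 clusters. *Ikzf1*, which encodes the haematopoietic factor Ikaros, fell (-1.34), *Runx1* (-1.10) and *Irf5* (-0.79), an interferon regulatory factor of Toll-like receptor signalling. *Sall1*, a factor of microglial identity that other brain cells also express, read 6.34, 6.51 and 6.74 against 6.00, 5.63 and 5.66 and did not pass (log2 change -0.77, adjusted p = 0.126). *Lyl1* at -0.60, *Maf* at -0.33, *Cebpa* at -0.11 and *Mef2c* at 0.04 did not pass either.

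PU.1 is known to bind purine-rich sites with the core GGAA, so the stretches upstream of the falling genes were searched for such letters. Of the 95 genes, 71 have a window in the RefSeq promoter table (build GRCm38.p6), and the 250 bases before each start were read on both strands. GAGGAAGT stood in 8 of the 71 genes (11.3%) and in 2.79% of all 27025 genes of the table. AGAGGAAG stood in 17 (23.9%, against 4.27% of all). The 2 motifs share the letters GAGGAAG, and 20 genes (28.2%, against 6.05%) held at least 1 of them. ACTTCC, whose complement GGAAGT lies within GAGGAAGT, stood in 40.8% against 22.2%. The composite site of ETS and IRF factors, a joined core of each, stood in 5.63% against 2.68%, the AP-1 site TGANTCA in 9.86% against 7.82%, the C/EBP letters GCAAT in 22.5% against 25.7% and the SMAD palindrome GTCTAGAC in 0% against 0.2%. These shares describe letters in a window and were not tested. The 5 genes with the largest falls among those that held GAGGAAGT or AGAGGAAG are printed here, 120 bases each from the strand of the gene, with the motif or its reverse complement in capitals. They are *Laptm5* (chr4:130913196-130913315, + strand), *C1qc* (chr4:136893045-136893164, - strand), *Fcrls* (chr3:87263606-87263725, - strand), *Fcgr3* (chr1:171059395-171059514, - strand) and *Inpp5d* (chr1:87620192-87620311, + strand). All lie upstream of the annotated start.
Laptm5: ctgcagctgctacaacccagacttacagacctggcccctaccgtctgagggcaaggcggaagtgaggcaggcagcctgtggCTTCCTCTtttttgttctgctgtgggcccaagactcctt
C1qc: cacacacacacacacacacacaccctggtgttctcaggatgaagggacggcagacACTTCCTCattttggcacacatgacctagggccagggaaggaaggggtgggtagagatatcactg
Fcrls: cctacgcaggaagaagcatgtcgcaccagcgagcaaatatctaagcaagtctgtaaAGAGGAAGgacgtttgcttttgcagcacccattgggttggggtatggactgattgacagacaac
Fcgr3: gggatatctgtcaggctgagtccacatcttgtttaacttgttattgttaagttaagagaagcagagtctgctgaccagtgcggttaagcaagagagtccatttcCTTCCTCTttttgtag
Inpp5d: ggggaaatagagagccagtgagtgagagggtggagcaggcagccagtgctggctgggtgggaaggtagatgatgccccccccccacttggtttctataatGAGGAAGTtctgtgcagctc
Counted on the strand of the gene from its start, the first base of the motif lies at -39 in *Laptm5*, -16 in *Fcgr3* and -20 in *Inpp5d*, and farther upstream in *C1qc* (-195) and *Fcrls* (-145).

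The classical complement pathway starts with C1q, whose 3 chains come from adjacent genes and are made in the brain mainly by microglia. Of 18 measured complement genes 6 fell, none rose and 12 did not pass, with a median log2 change of -0.14. *C1qb* read 8.96, 8.85 and 8.37 in FIRE +/+ and 5.67, 5.96 and 5.08 in FIRE -/- hippocampus, an 8.92-fold fall (adjusted p = 0.000739). *C1qc* read 7.78, 7.78 and 7.58 against 4.90, 4.58 and 4.47 (8.35-fold, adjusted p = 3.40e-05). *C1qa* read 7.11, 6.94 and 7.14 against 4.35, 4.75 and 3.90 (6.64-fold, adjusted p = 0.000581). Among the FIRE -/- arrays, H07 was lowest for each chain. *Itgam* and *Itgb2*, whose products CD11b and CD18 form complement receptor CR3, fell (-2.73 and -1.08), and so did *C3ar1* (-2.16), the receptor gene for the C3a fragment. The complement genes that did not pass included *Serping1*, the C1 inhibitor gene, at 0.60, *C5ar1* at -0.46 and *Itgax* at -0.08.

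Microglia sense nucleotides released by damaged or active cells. Of 11 measured genes of purine receptors and nucleotide enzymes 4 fell, none rose and 7 did not pass, and the median was -0.38. *P2ry13*, which encodes a receptor for ADP, read 7.50, 7.66 and 7.32 against 3.91, 3.75 and 3.74, a 12.9-fold fall (adjusted p = 7.86e-06). *P2ry12*, the receptor gene that guides microglial processes to injury, read 5.89, 5.46 and 5.46 against 3.59, 3.62 and 3.50 (4.09-fold, adjusted p = 0.000321). *P2ry6*, the UDP receptor gene, read 5.65, 5.66 and 5.84 against 4.11, 4.31 and 4.02 (2.97-fold, adjusted p = 0.000446). As in all 95 clusters, no FIRE -/- array reached a FIRE +/+ array in these genes. *Entpd1*, which encodes the ectonucleotidase CD39, fell 1.74-fold (adjusted p = 0.0132), from 7.18 ± 0.09 to 6.38 ± 0.13 (SD, n = 3 each). It stayed above the array medians. *Gpr34*, a lysophospholipid receptor gene of microglia, did not pass at -0.84 (adjusted p = 0.170), nor did *P2rx7* at -0.31 and *P2rx4* at -0.05. Placed with this group after the calls were seen, *Gna15*, a G protein of haematopoietic cells, fell (-1.55) and *Gpr84* (-1.28), a receptor gene for medium-chain fatty acids.

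Fc receptors, immunoreceptors that carry or recruit an ITAM, a tyrosine motif phosphorylated on activation, and their signalling partners formed a group of 14 falling genes. The functional groups were made after the calls were seen, so their sizes are not a result. Of 12 measured Fc receptor genes 5 fell and 7 did not pass (median -0.33), and of 20 measured genes of ITAM signalling 7 fell and 13 did not pass (median -0.50). None rose in either list, and *Fcer1g* is on both. *Fcrls*, an Fc receptor-like gene of microglia, read 6.56, 6.62 and 5.27 against 3.34, 3.13 and 3.29, a 7.45-fold fall (adjusted p = 0.00757), with G07 well below the other FIRE +/+ arrays. *Fcer1g*, which encodes the common Fc receptor gamma chain, read 6.85, 6.90 and 6.59 against 4.18, 4.59 and 4.36 (5.30-fold, adjusted p = 0.000118). *Trem2*, the lipid-sensing receptor gene, read 6.55, 6.70 and 6.50 against 4.49, 4.21 and 4.22 (4.84-fold, adjusted p = 6.35e-05). Its adaptor *Tyrobp* fell (-2.11), the low-affinity receptor gene *Fcgr3* (-2.04), the high-affinity receptor gene *Fcgr1* (-1.18) and the inhibitory *Fcgr2b* (-1.03). *Inpp5d*, which encodes the phosphatase SHIP1 and opposes these receptors, fell (-2.01), the adaptors *Fyb*, *Nfam1*, *Lcp2* and *Pik3ap1* (-1.24 to -0.90), the exchange factor gene *Vav1* (-0.88) and the phosphatase gene *Ptpn6* (-0.84). The kinase genes *Syk* at -0.49 and *Btk* at -0.45 and *Apbb1ip* at -0.89 (adjusted p = 0.146) did not pass.

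Genes listed as inhibitory or checkpoint receptors fell as well, sialic acid-binding lectins among them. Of 19 measured inhibitory and checkpoint receptor genes 5 fell, none rose and 14 did not pass (median -0.53). *Siglech*, a sialic acid-binding lectin gene used as a microglial marker, read 5.84, 5.87 and 5.97 in FIRE +/+ and 3.45, 3.19 and 3.36 in FIRE -/- hippocampus (5.91-fold lower, adjusted p = 2.28e-05). *Cd33*, another lectin gene of that family, read 6.37, 6.69 and 6.29 against 4.32, 3.83 and 3.82 (5.51-fold lower, adjusted p = 0.000425). It is also counted among the genes of ITAM signalling. *Vsir*, which encodes the checkpoint protein VISTA, read 6.97, 7.14 and 6.96 against 5.24, 5.25 and 5.05 (3.59-fold lower, adjusted p = 0.000109). In FIRE -/- mice *Vsir* still lay above the array median on each array. *Havcr2*, the gene of the checkpoint receptor TIM-3, fell (-1.16) and *Siglece* (-0.94). *Pilra* at -1.39 and *Tnfaip8l2* at -1.13, added to the group after the calls were seen, passed as well. *Cd86*, a costimulatory gene, lay just outside the threshold and did not pass, at -0.90 (adjusted p = 0.0635). Neither did *Sirpa* at -0.08 and *Cd274* at -0.01.

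Receptors for microbial products and nucleic acids formed a further group of 9 falling genes. Of 19 measured genes of Toll-like receptors and their partners 6 fell, none rose and 13 did not pass (median -0.51). *Ly86* encodes MD-1 and *Cd180* its membrane partner RP105, which together tune the lipopolysaccharide response. *Ly86* read 7.88, 7.85 and 7.82 against 4.14, 4.36 and 3.68, a 13.8-fold fall (adjusted p = 3.40e-05), and *Cd180* read 5.65, 6.01 and 5.45 against 3.27, 3.02 and 2.68 (6.56-fold, adjusted p = 0.000443). *Pld4*, which encodes an endolysosomal nuclease that limits nucleic acid sensing, read 6.42, 6.40 and 6.43 against 3.91, 3.24 and 3.49 (7.32-fold, adjusted p = 0.000118). The FIRE +/+ arrays agreed within 0.1 for *Ly86* and *Pld4*. The receptors that fell were the endosomal ones, *Tlr13* (-1.77), *Tlr7* (-1.29) and *Tlr9* (-1.01), with *Unc93b1* (-1.36), their chaperone. The surface receptor genes *Tlr2* at -0.51, *Tlr1* at -0.52, *Tlr5* at -0.65, *Tlr6* at -0.09 and *Tlr4* at 0.06 did not pass, nor did the endosomal *Tlr8* at -0.11 and *Tlr3* at -0.06. A difference between surface and endosomal receptors was not tested. *Sting1*, the gene of the cyclic dinucleotide sensor STING, fell (-1.37) and *Slc15a3* (-1.01), an endosomal peptide transporter gene.

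Of 34 measured cathepsin and lysosome genes 5 fell, none rose and 29 did not pass, and the median of the list was -0.03. *Ctss*, the gene of a cathepsin of antigen-presenting cells, read 7.11, 7.03 and 7.27 against 3.28, 2.72 and 3.37, a 16.2-fold fall (adjusted p = 3.40e-05). *Laptm5*, a lysosomal membrane protein gene of haematopoietic cells, read 8.98, 9.05 and 8.80 against 5.49, 5.60 and 5.38 (11.0-fold, adjusted p = 7.86e-06). *Mpeg1*, which encodes the pore-forming perforin-2 of macrophages, read 6.01, 5.89 and 5.52 against 2.35, 2.73 and 2.23 (10.4-fold, adjusted p = 7.51e-05). These 3 genes and *Slc11a1* (-1.15), a phagosomal metal transporter gene, and *Cd68* (-1.06) were the members that fell. Lysosomal genes that many cell types use did not pass, among them *Lamp1* at 0.05, *Ctsd* at -0.14, *Ctsl* at -0.03, *Psap* at 0.00, *Grn* at -0.06 and the proton pump gene *Atp6v0e* at 0.15. Other members of the list lay lower without overlap, as 5.2% of all clusters did, and did not pass either. They included *Man2b1* at -0.59, *Ctsz* at -0.38, *Ctsh* at -0.32 and *Lgmn* at -0.28. Of the 34 members 20 lay below 0 and 14 above. Of 7 measured NADPH oxidase genes 3 fell and 4 did not pass (median -0.46). The subunit gene *Ncf1* fell (-1.06), the GTPase gene *Rac2* (-1.31) and *Cyba* (-0.54), the smallest fall of the 95, from 6.68 ± 0.03 to 6.14 ± 0.07 (SD, n = 3 each). The catalytic subunit gene *Cybb* was at -0.46 and did not pass.

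Cell surface and adhesion genes held several of the largest falls. *Selplg*, which encodes a ligand of selectins, read 7.52, 7.41 and 7.50 against 2.71, 3.34 and 3.21, a 20.9-fold fall (adjusted p = 2.02e-05). *Cx3cr1*, the receptor gene for the neuronal chemokine fractalkine, read 7.46, 7.51 and 7.48 against 4.32, 3.77 and 3.91 (11.2-fold, adjusted p = 2.94e-05). The tetraspanin gene *Cd53* read 6.56, 6.56 and 6.25 against 3.18, 3.32 and 3.46 (8.79-fold, adjusted p = 2.28e-05). The FIRE +/+ arrays were within 0.2 of each other for *Selplg* and *Cx3cr1*, and the FIRE -/- arrays were more spread. Of 18 measured adhesion and tetraspanin genes 5 fell, none rose and 13 did not pass (median -0.16). The 5 were *Selplg*, *Cd53*, *Cd37* and, counted among the complement genes too, *Itgam* and *Itgb2*. *Cd37*, another tetraspanin gene, fell (-1.81) and *Adgre1* (-1.80), which encodes the macrophage antigen F4/80. *Ms4a6d*, *Cmtm7* and *Ptprc*, the gene of CD45, fell (-1.03, -0.78 and -0.75). *Cx3cr1* was the only one of 15 measured chemokine receptor genes that fell. None of 21 chemokine genes passed, with *Ccl3* at -0.88 (adjusted p = 0.774), *Ccl9* at -0.84 and *Ccl6* at -0.75 and a median of -0.05.

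Genes of cytokine and TGF-beta signalling had smaller changes, and a difference between groups of genes was not tested. Of 30 measured cytokine and cytokine receptor genes 2 fell, none rose and 28 did not pass (median -0.20). *Il10ra*, a chain of the interleukin-10 receptor, read 4.11, 4.49 and 4.01 against 2.92, 2.80 and 2.95 (2.49-fold lower, adjusted p = 0.00426). *Csf3r*, the receptor gene for granulocyte colony-stimulating factor, read 3.96, 4.13 and 3.85 against 2.74, 2.82 and 2.80 (2.29-fold lower, adjusted p = 0.00117). Both were dim, with all FIRE -/- values below the array medians. *Il21r* at -1.09 (adjusted p = 0.0650), *Tnfrsf1b* at -0.81 and *Il1a* at -0.78 did not pass, and the genes of the inflammatory cytokines were at -0.24 for *Il1b*, -0.01 for *Tnf* and 0.10 for *Il6*. TGF-beta maintains microglial identity, and 2 of 16 measured genes of TGF-beta and trophic factors fell (median 0.01). *Tgfbr1*, the type I receptor gene, read 6.31, 6.33 and 6.29 against 5.30, 5.33 and 5.13 (2.08-fold lower, adjusted p = 0.00135), and *Tgfb1* read 5.94, 5.90 and 5.87 against 5.16, 5.08 and 5.18 (1.70-fold lower, adjusted p = 0.00526). Both kept a signal above the array medians. *Tgfb2* at 0.05, *Tgfb3* at 0.08, *Igf1* at 0.10 and *Bdnf* at -0.15 did not pass.

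Of 29 measured genes of the actin and signalling machinery of haematopoietic cells 15 fell, none rose and 14 did not pass (median -0.84). *Ptprc*, named above, is on this list too. Among all clusters 0.448% fell, but the lists were chosen with earlier results of these data known, so their counts are not ranked. *Nckap1l*, which encodes the haematopoietic HEM1 subunit of the WAVE complex, read 6.15, 6.04 and 6.06 against 3.41, 3.25 and 3.36, a 6.69-fold fall (adjusted p = 9.17e-06). *Dock2*, an activator of Rac in leukocytes, read 4.80, 4.69 and 4.82 against 3.27, 3.30 and 3.22 (2.84-fold, adjusted p = 0.000118). *Bin2*, which encodes a membrane-curving protein and was not on the list, read 5.62, 5.39 and 4.89 against 2.69, 2.96 and 2.87 (5.52-fold, adjusted p = 0.000647). As in all 95 clusters, the genotypes did not overlap in these. *Gmfg*, *Pik3cg*, the gene of phosphoinositide 3-kinase gamma, *Hcls1*, *Rac2* and *Plek* fell, with log2 changes of -1.44 to -1.22. *Cyth4*, *Lcp1*, which encodes the actin bundler L-plastin, *Arhgap45*, *Dock8* and *Myo1f* fell, with log2 changes of -1.11 to -0.88. *Pik3r5*, the regulatory subunit gene of the same kinase, was at -0.87 (adjusted p = 0.0956), and *Coro1a* at -0.04 and *Arpc1b* at 0.01 did not pass. Of 20 measured genes for the clearance of apoptotic cells 1 fell, *Dock2*, and the engulfment receptor genes *Mertk* at -0.29 and *Axl* at -0.05 did not pass (median -0.05).

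The falling genes also held transporters, channels and enzymes of lipid metabolism. *Slc2a5*, the gene of the fructose transporter GLUT5, read 6.51, 6.20 and 6.21 against 3.69, 3.77 and 3.87 (5.79-fold lower, adjusted p = 3.44e-05). *Hpgds*, the gene of haematopoietic prostaglandin D synthase, read 5.32, 5.28 and 5.15 against 3.78, 3.38 and 2.96 (3.68-fold lower, adjusted p = 0.00409). *Kcnk6*, a potassium channel gene, read 6.22, 6.26 and 6.02 against 4.37, 4.38 and 4.28 (3.54-fold lower, adjusted p = 0.000103). H07 was lowest of the FIRE -/- arrays for *Hpgds*, while *Kcnk6* hardly varied among them. *Lpcat2*, which makes platelet-activating factor and membrane lipids, fell (-1.64), the drug transporter gene *Abcc3* (-1.33), *Alox5ap* (-1.29), needed for leukotriene synthesis, the organic anion transporter gene *Slco2b1* (-1.22) and the phosphodiesterase gene *Pde3b* (-0.78). Of 15 measured eicosanoid and lipid enzyme genes, counting *Pld4*, 4 fell, none rose and 11 did not pass (median -0.38). *Alox5*, the enzyme that ALOX5AP serves, was at -0.07 and the prostaglandin enzyme gene *Ptgs2* at -0.03.

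*Tmem119*, the marker used to tell microglia from other macrophages, read 7.47, 7.22 and 7.13 against 4.87, 4.46 and 4.83 (5.86-fold lower, adjusted p = 0.000118). *Olfml3*, a secreted glycoprotein gene, read 8.70, 8.15 and 8.01 against 6.76, 6.16 and 6.25 (3.73-fold lower, adjusted p = 0.00763). *Crybb1*, a crystallin gene of young microglia, read 6.19, 5.78 and 5.15 against 4.02, 4.0 and 4.0 (3.25-fold lower, adjusted p = 0.0232). The FIRE +/+ arrays were more spread than the FIRE -/- arrays in *Crybb1*. The remaining falling genes were *I830077J02Rik* (-1.01), the noncoding *Gm10790* (-1.15), *Gm5039* (-0.89), a transcribed pseudogene, and *Cstdc6* (-0.64). *Gm5039* and *Cstdc6* were among the dimmest, at 3.05 and 3.08 in FIRE +/+ hippocampus, and *Cstdc6* belongs to a family of near-identical stefin genes, so that its assignment is uncertain. A second cluster each of *Gmfg* and *Cmtm7* was dim and did not pass (0.07 and -0.05).

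**Figure D2:**
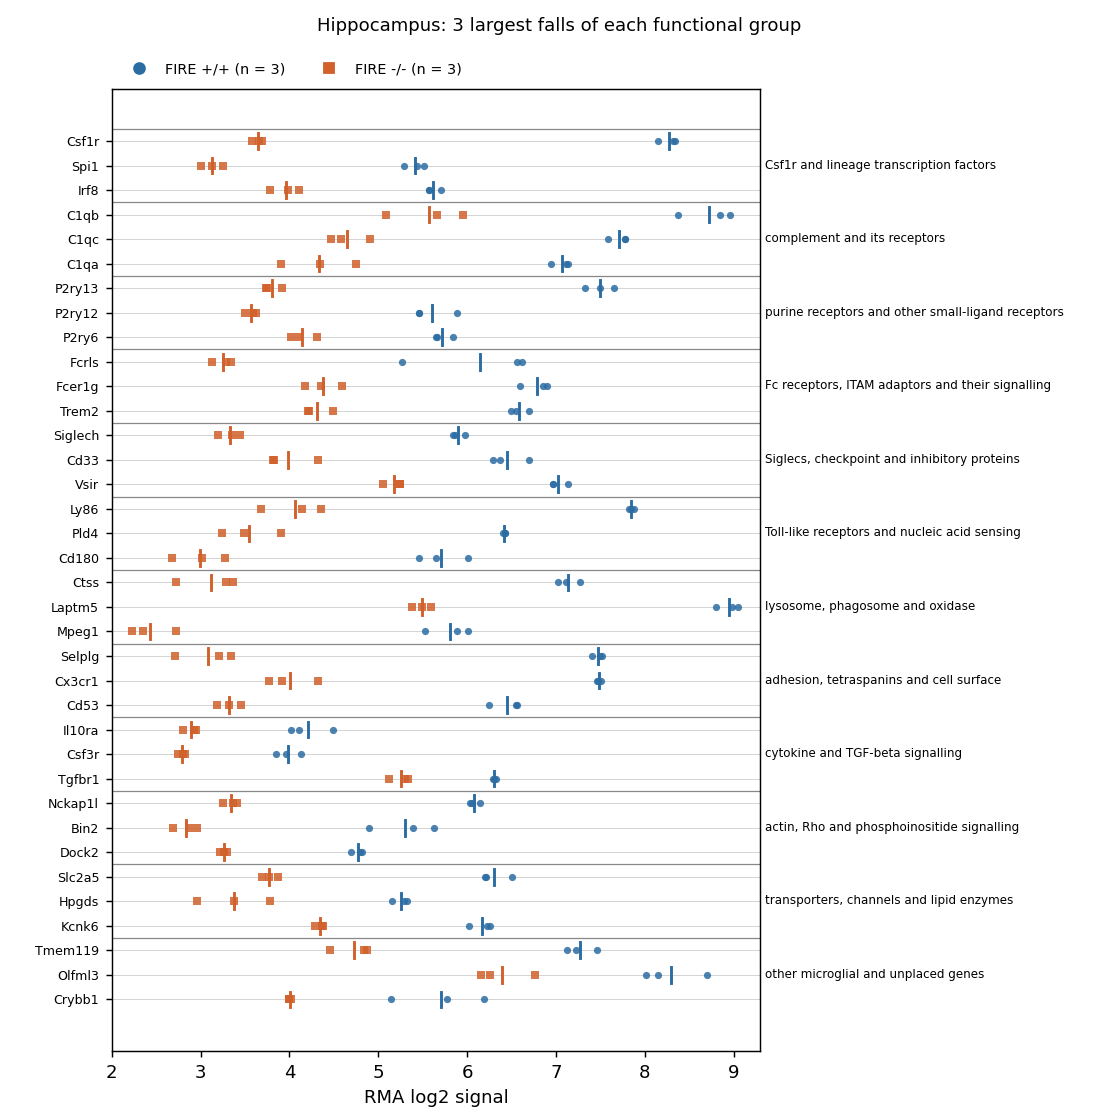
RMA log2 signal (x axis) on each hippocampus array for the 3 genes with the largest fall in each of 12 functional groups, named at the right. Circles are FIRE +/+ and squares FIRE -/- arrays, 3 of each, and bars are means. No square reaches a circle of the same gene, from *Csf1r* (24.7-fold) to *Tgfbr1* (2.08-fold). The genes were called on these same arrays, which favours this separation, and 5.2% of all clusters were separated in this direction.

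Read by cell type, 11 of 14 measured markers shared by macrophages fell and 3 did not pass (*Aif1* at -1.18, *Cd14* at -0.54 and *Lyz2* at -0.35), with a median of -1.95. Of 20 measured genes of microglial identity 11 fell and 9 did not pass, with a median of -1.25. Of those 9, 8 lay below 0, among them *Upk1b* at -0.91 (adjusted p = 0.238), *Gpr34* and *Sall1*. Of 18 measured genes of disease-associated microglia 2 fell, *Trem2* and *Tyrobp*, and *Gpnmb* at 0.61, *Apoe* at -0.01 and *Lpl* at -0.02 did not pass (median -0.04). None of 13 genes of border macrophages, which line the vessels and meninges, passed, and their median was 0.11. Their mean signal was low, at 3.66, 3.70 and 3.64 on the FIRE +/+ and 3.78, 3.83 and 3.60 on the FIRE -/- arrays. These means lay below the array medians, so the missing calls do not show that the genes were unchanged. *Mrc1* read 3.81, 3.93 and 3.49 in FIRE +/+ and 4.26, 4.34 and 3.80 in FIRE -/- hippocampus, and *Cd163* stayed between 2.94 and 3.21, so both were dim. None of 8 MHC class II genes (median -0.18), 13 genes of blood leukocytes (median -0.05) or 2 of red cells (median 0.02) passed. The member farthest from 0 was *Stab1* at -0.42 among the border macrophage genes, *H2-Oa* at -0.36 among the MHC class II genes, *Cd79b* at -0.82 among the blood leukocyte genes and *Alas2* at 0.16 for red cells. *Siglec1*, the gene of the macrophage lectin CD169, was at 0.12 and also dim (mean 3.79 in FIRE +/+ hippocampus), and *Siglecf* was at -0.03. *Tnfrsf11a*, the receptor gene RANK of early macrophages, was at -0.63, and the genes of the receptor for granulocyte-macrophage colony-stimulating factor were at 0.00 (*Csf2ra*), -0.41 (*Csf2rb*) and -0.53 (*Csf2rb2*) without a call. The lymphocyte markers *Cd3e* and *Cd79a* and the granulocyte markers *S100a8* and *S100a9* lay between 2.40 and 3.78 on all arrays, below the array medians.

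The other cells of the hippocampus gave no call in either direction. The medians were 0.03 for 19 neuronal genes, -0.02 for 15 synaptic genes, 0.11 for 11 genes of progenitors and young neurons, -0.01 for 14 homeostatic astrocyte genes, 0.02 for 18 genes of the oligodendrocyte lineage, 0.03 for 11 endothelial genes, 0.15 for 13 interferon-stimulated genes and -0.01 for 11 cell cycle genes. A missed threshold does not show that these genes were unchanged, and at 3 arrays per genotype the standard error of a gene such as *Rbfox3*, a marker of mature neurons, was 0.10 (log2 change 0.03). The members farthest from 0 were *Meg3* at -0.21 among the neuronal genes, *Bsn*, which encodes the presynaptic scaffold bassoon, at -0.28, *Hopx*, a gene of neural stem cells, at 0.25, *Slc1a3*, the gene of the glutamate transporter GLAST, at 0.12, *Olig2*, the oligodendrocyte lineage factor, at -0.28, *Vwf* of endothelium at 0.20, the interferon-induced *Ifitm3* at 0.42 and the replication gene *Mcm3* at -0.22. Genes of cortical and progenitor identity lay near 0 as well, with *Dcx*, the gene of doublecortin in young neurons, at -0.06, *Sox2* at -0.15, *Cux1* at 0.01 and *Bcl11b* at -0.04.

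**Figure D3:**
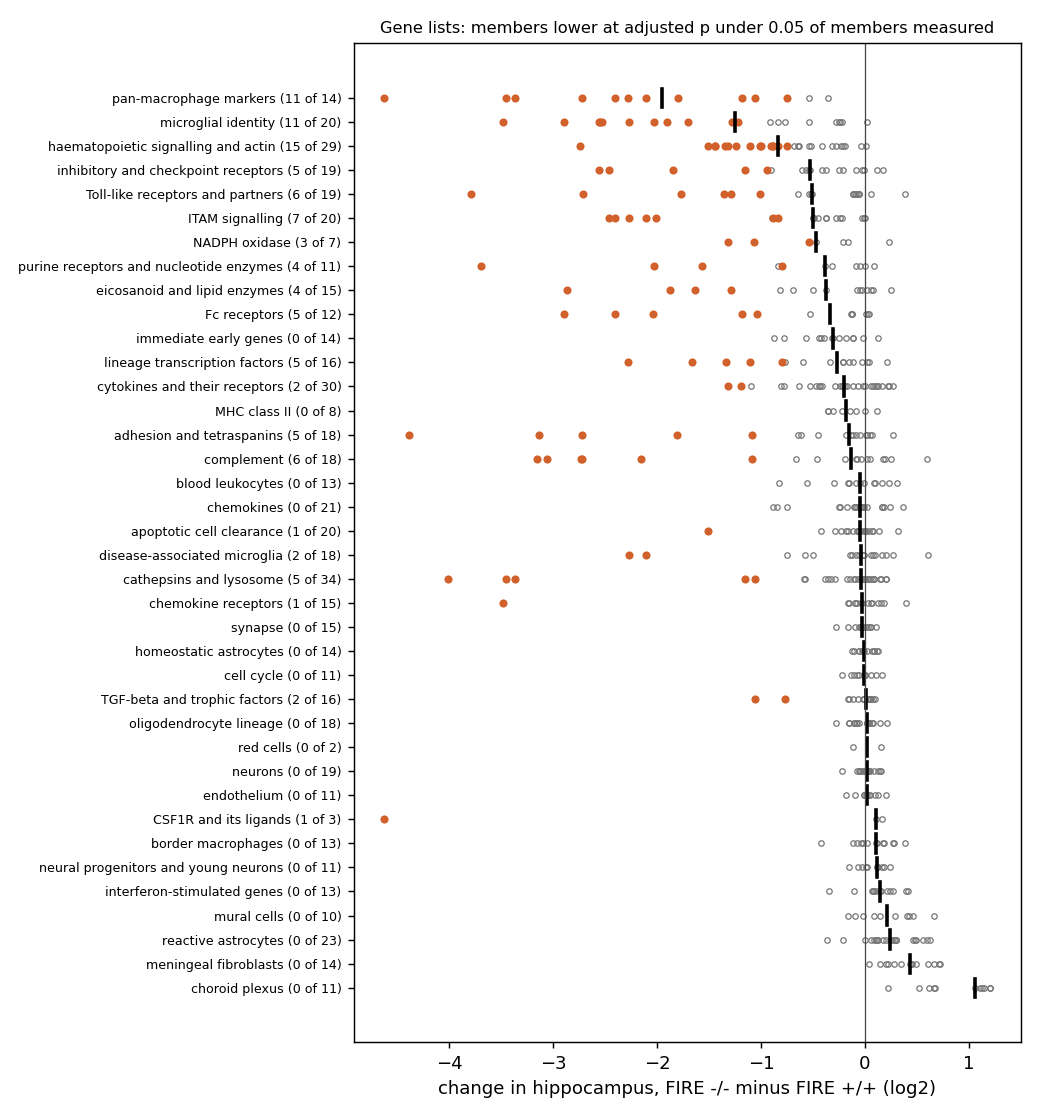
Log2 change in the hippocampus (x axis) of each measured member of 38 gene lists, ordered by median (black bar). Filled points fell at an adjusted p under 0.05, open points did not pass, and the counts are the members that fell of those measured. The macrophage, microglial and haematopoietic lists reach far to the left (medians -1.95, -1.25 and -0.84), the lists of neurons, homeostatic astrocytes and the oligodendrocyte lineage have medians within 0.05 of 0, and the reactive astrocyte (0.25), meningeal and choroid plexus lists lie to the right without a call.

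No cluster rose past the threshold. The smallest adjusted p of a positive change was 0.101, and the genotypes did not overlap, with FIRE -/- higher, in 946 clusters (4.46% of those tested). The genes below are the 20 of these with the smallest p-values and the 10 with the largest change at an unadjusted p under 0.05, 29 genes in all, and none passed in this fit. Of these, 4 passed under a single alternative each, *Gfap* with trend and robust variances (limma, adjusted p = 0.0127), *Ogn* (0.0387) and *H3c15* (0.0425) without E07 and *Mdh1b* (0.0294) without B09. *Piezo2*, a mechanosensitive channel gene, read 3.80, 3.77 and 3.84 in FIRE +/+ and 4.45, 4.51 and 4.20 in FIRE -/- hippocampus (log2 change 0.58, standard error 0.10, adjusted p = 0.101). *Gfap*, the intermediate filament gene of astrocytes, was the brightest of the 29. It read 8.99, 9.28 and 9.13 against 9.59, 9.77 and 9.70 (0.56, standard error 0.10, adjusted p = 0.142). *H2-K1*, an MHC class I gene, read 5.0, 5.02 and 5.22 against 5.61, 5.62 and 6.03 (0.67, adjusted p = 0.179) and was the only gene named by both rules. It belongs to a family of similar and variable genes, so its signal is uncertain. *Hcar1*, the lactate receptor gene, was at 0.67 (adjusted p = 0.152).

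The 29 genes also held *Fbln5* (fibulin-5, 0.52), *Mgp* (matrix Gla protein, 0.61), *Ogn* (osteoglycin, 0.72), *Flnc* (filamin C, 0.58), *Cpxm1* (0.53), *Hs3st3a1* (a heparan sulfate sulfotransferase, 0.62) and *Tgm3* (a transglutaminase, 0.47). The others by p-value were *Cr1l* (a complement regulator, 0.57), *Gpr182* (a chemokine-binding receptor of endothelium, 0.61), *9430021M05Rik* (0.60), *Tmc4* (0.48), *Tmem202* (0.60), *Sdr42e1* (0.42), *Atg9b* (an autophagy gene, 0.41), *Nr1i2* (the pregnane X receptor, 0.45), *Zfp947* (0.51) and *1700013D24Rik* (0.36). The largest differences rested on spread-out arrays. *Tceal6* read 6.58, 6.20 and 4.72 against 6.93, 6.94 and 7.20 (1.19, standard error 0.42). *Klk6*, a kallikrein gene, read 4.91, 4.98 and 4.65 against 5.96, 6.77 and 5.13 (1.11, standard error 0.35). For *Tceal6* the low FIRE +/+ array G07 and for *Klk6* the high FIRE -/- array B09 made much of the difference. *AA388235* (1.08), *Sult1c2* (0.96), the histone gene *H3c15* (0.76), *Mdh1b* (0.73), the sulfate transporter gene *Slc13a4* (0.72) and *Cpa6* (0.70) complete the set. In 9 of the 29 the FIRE -/- mean lay below 4.33, the mean of the array medians.

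**Figure D4:**
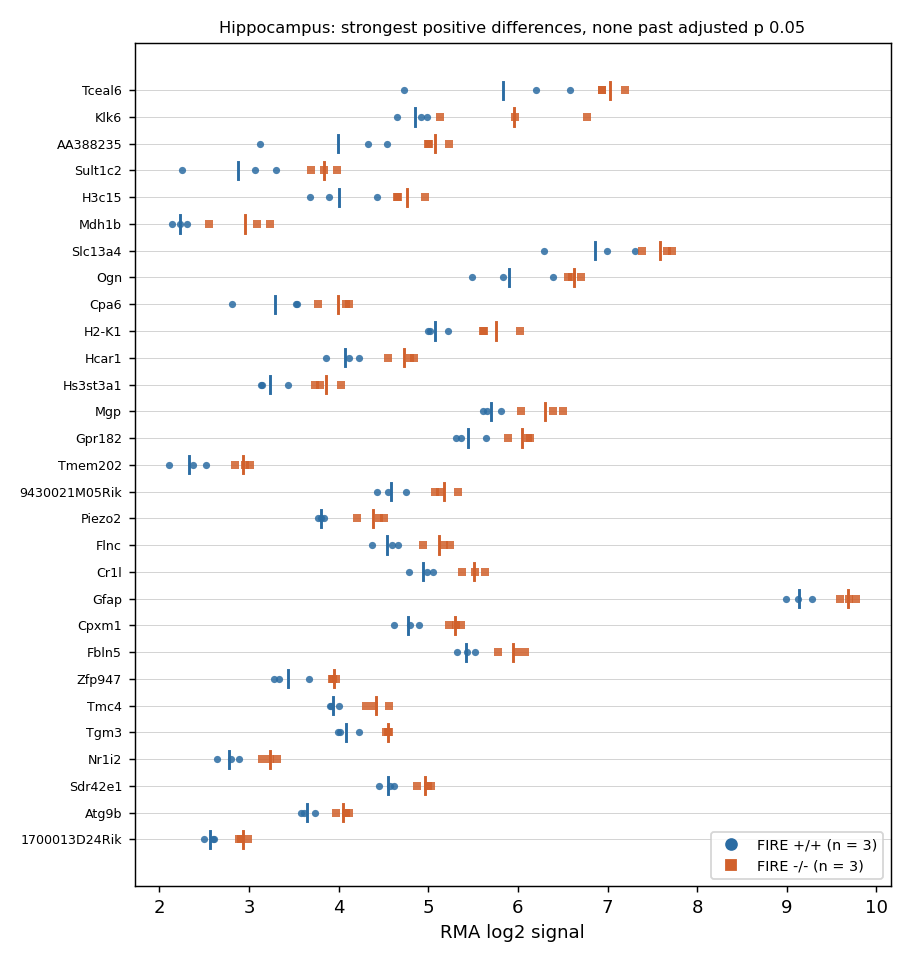
RMA log2 signal (x axis) on each hippocampus array of the 29 genes with the strongest positive differences, ordered by size. Circles are FIRE +/+ and squares FIRE -/- arrays, 3 of each, and bars are means. The groups do not overlap, by the way the genes were chosen, and the differences run from 1.19 for *Tceal6* to 0.36 for *1700013D24Rik*, with no gene past the threshold.

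Markers of tissue next to the hippocampus differed between the arrays. Of 14 measured genes of meningeal fibroblasts, which hold *Ogn*, *Mgp* and *Slc13a4* of the genes above, all lay higher in FIRE -/- hippocampus, none passed, and the median was 0.44. Their mean signal was 6.66, 6.33 and 6.31 on the FIRE +/+ and 6.94, 6.82 and 6.79 on the FIRE -/- arrays, without overlap. The median lay between 0.32 and 0.51 when 1 array was left out. All 11 measured choroid plexus genes lay higher too, with a median of 1.06, and none passed. Their mean was 7.37, 4.51 and 6.77 against 7.28, 7.52 and 6.46, so that the FIRE +/+ array F07 stood far below the rest. *Ttr*, the transthyretin gene of the choroid plexus, read 12.42, 9.24 and 12.11 against 12.34, 12.48 and 12.12. Without F07 the median of the list was 0.04. The part of meninges or choroid plexus in the differences of other genes was not tested.

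Of 23 measured genes of reactive astrocytes 21 lay higher, none passed, and the median was 0.25. *Serpina3n*, an acute-phase serpin gene, read 9.98, 9.70 and 9.39 against 10.16, 10.55 and 10.25 (0.63, adjusted p = 0.510), *Serping1* was at 0.60 and *Vim*, the vimentin gene, at 0.30. Meningeal cells also express *Serping1* and *Vim*, and the meningeal list lay in the same direction; its part in these values was not tested. With 1 array left out the median of the list lay between 0.17 and 0.28. The median was 0.22 for 10 genes of mural cells. *Cnn1*, a smooth muscle gene, read 3.97, 4.83 and 4.08 against 6.13, 4.03 and 4.73 and overlapped. Without A09 the median of this list was 0.06. Of 14 immediate early genes, which neuronal activity induces within minutes, 13 lay lower, none passed, and the median was -0.31. *Egr2* read 7.11, 6.82 and 5.85 against 4.43, 6.29 and 6.45, with A09 lowest, and the median was -0.03 without A09.

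The threshold fell between genes with similar values. Just inside it lay *Havcr2*, at 4.30, 4.51 and 4.15 against 3.38, 3.32 and 2.78 (adjusted p = 0.0407). *Cyba*, at 6.71, 6.66 and 6.66 against 6.15, 6.06 and 6.20, had an adjusted p of 0.0478. *Irf5*, at 4.88, 4.43 and 4.64 against 3.88, 3.80 and 3.88, had an adjusted p of 0.0485. The genes just outside did not overlap between the genotypes either, which their ranking by p-value favours. *Lpxn*, which encodes the leukocyte adhesion protein leupaxin, lay at 4.03, 4.04 and 4.11 against 3.53, 3.52 and 3.58 (adjusted p = 0.0505). *Tifab*, an inhibitor of NF-kappaB signalling, lay at 4.0, 4.06 and 4.36 against 3.07, 2.77 and 3.38 (adjusted p = 0.0543). *Ptafr*, the receptor gene for platelet-activating factor, lay at 4.10, 4.10 and 4.22 against 2.90, 3.37 and 2.53 (adjusted p = 0.0574).

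When each array was left out in turn, 64 of the 95 genes passed every time and 31 missed the threshold at least once, at adjusted p up to 0.279, with log2 changes no closer to 0 than -0.50. *Havcr2*, *Cstdc6*, *Myo1f*, *Ptpn6* and *Cyba* missed it whichever array was left out, *Gm10790*, *Slc15a3* and *Cmtm7* with any array but E07 and *Irf5* with any but F07. The calls on *Lcp2*, *Fyb*, *Gm5039* and *Fcrls* ended without B09 only, that on *Plek* without G07 and that on *Siglece* without H07. Those on *Itgb2*, *Pik3ap1*, *Olfml3* and *Pde3b* ended without B09 or H07, on *Abcc3* and *Dock8* without A09 or B09, on *Vav1* without any FIRE -/- array and on *Rac2* without G07 or H07. The calls on *Nfam1*, *I830077J02Rik*, *Crybb1*, *Ptprc*, *Fcgr2b*, *Ikzf1*, *Entpd1* and *Ncf1* ended in 3 or 4 of the 6 settings. A fit that took the code number as a block ended 37 of the calls, at adjusted p up to 0.730 and with log2 changes no closer to 0 than -0.47. They were those of 26 of these 31 genes, all but *Havcr2*, *Lcp2*, *Gm5039*, *Plek* and *Fcgr2b*, and of 11 that passed with each array left out. The 11 were *Slc11a1* (adjusted p = 0.0520), *Runx1* (0.0617), *Lcp1* (0.0623), *Sting1* (0.0828), *Gmfg* (0.0932), *Arhgap45* (0.0952), *Cyth4* (0.0952), *Hcls1* (0.105), *Il10ra* (0.126), *Tgfb1* (0.174) and *Pilra* (0.280).

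The same genes were then followed in the ileum. None of the 95 passed there (0% of all clusters fell), their median log2 change was 0.07 and their range -0.79 to 0.91, with 35 below and 60 above 0. *Csf1r* was at -0.71 in the ileum, with a standard error of 0.32 there against 0.09 in the hippocampus. *P2ry6* was at -0.79 (standard error 0.51), *Fcrls* at -0.76 (0.23) and *Pik3ap1* at -0.61 (0.41). *Slc2a5*, which the intestinal epithelium also expresses, was at 0.91 (0.32). A missed threshold in the ileum does not show that these genes were unchanged there. The difference of the 2 tissues' changes passed the test in 19 clusters (0.0895% of those tested), all among the 95. Since the 95 were called on the same hippocampus arrays, this count is not independent of their falls. The largest of these differences were *Selplg* (-4.53), *Csf1r* (-3.92), *Ctss* (-3.89), *P2ry13* (-3.50), *Slc2a5* (-3.44), *Mpeg1* (-3.42) and *Cx3cr1* (-3.10). For the other 76 a difference between the tissues was not shown. The ileum pieces varied in lymphoid tissue, and the B cell gene *Ms4a1* read 7.66 on the FIRE +/+ array D09 and 7.68 on the FIRE -/- array F09 but 2.14 to 2.68 on the other 4. Without D09 the count was 41, without F09 it was 26, and without both, a setting chosen after the data were seen, it was 65, of which 58 were among the 95. Without the hippocampus array E07 or B09 it was 12.

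**Figure D5:**
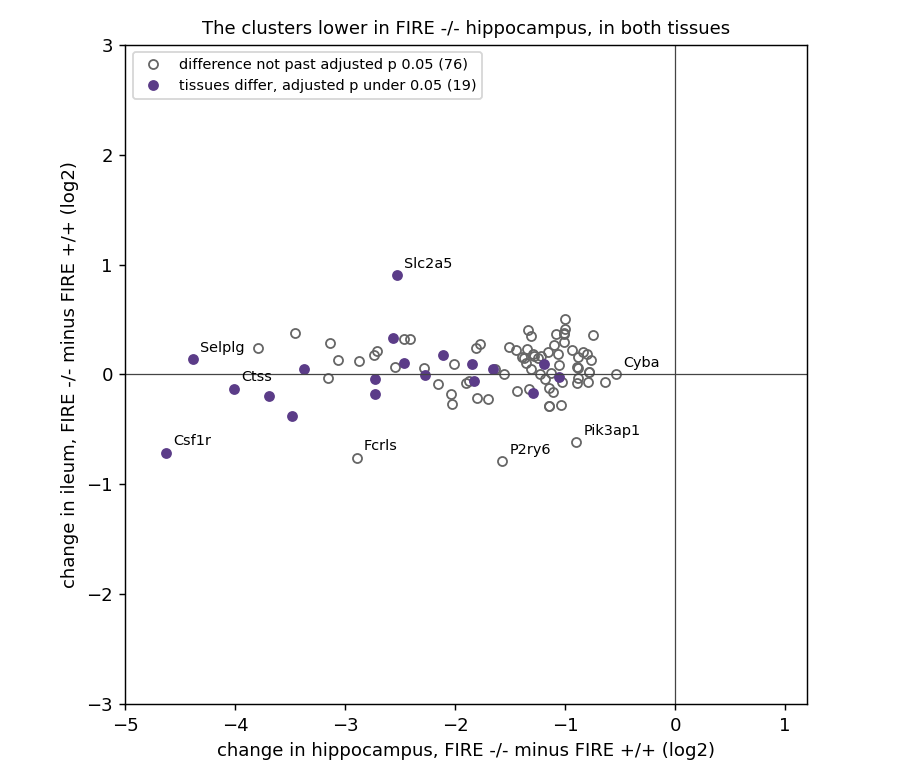
Log2 change, FIRE -/- minus FIRE +/+, in the hippocampus (x axis) and the ileum (y axis) of the 95 clusters that fell in the hippocampus, on equal scales. Filled points are the 19 clusters whose changes differed between the tissues. The points spread from -4.63 to -0.54 along the hippocampus axis and from -0.79 to 0.91 along the ileum axis.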

How the data were processed

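RNA of the hippocampus was hybridised to 1-colour Affymetrix Mouse Gene 1.0 ST arrays. The authors normalized the scanner files by RMA and deposited log2 values, which were used as given. RMA shrinks differences of dim probes. For the probe annotation, the genome build was not given in the sources used here. Gene names came from that annotation, which can be old, and 21185 of the 21218 clusters with 1 symbol matched RefSeq by gene ID. Groups followed the labels. The linear model of limma 3.58.1 in R 4.3.3, with moderated variances, compared 3 arrays with 3, and Benjamini-Hochberg adjustment ran over 21218 clusters. A fit over 12 arrays tested the difference between tissues. The number of arrays limits the precision. The labels do not say which arrays came from which mice, so p-values measure the spread between these samples. An exact permutation test of 3 against 3 cannot go below p = 0.1. Scripts were tested on simulated data. Alternatives changed the variance model, normalization, filter, covariates, fit and arrays.

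The members and lists were chosen with earlier results of these data known. *Hvcn1* and *Ctsb* had no cluster with 1 symbol and were not analysed here. All falling genes were named, with their functional groups assigned after the calls, and the 20 higher genes of smallest p and 10 of largest change among those without overlap. A list gene with several clusters was read from the cluster with the highest mean signal, and each list is described by its count and median only.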

Additional observations from a re-analysis of the deposited data

Results flagged for a closer look

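The change in the hippocampus differed from that in the ileum in 19 clusters by the interaction test (limma, adjusted p under 0.05). The hippocampus change minus the ileum change was -4.53 for *Selplg*, -3.92 for *Csf1r*, -3.89 for *Ctss*, -3.50 for *P2ry13*, -3.44 for *Slc2a5*, -3.42 for *Mpeg1* and -3.10 for *Cx3cr1*. It was -2.89 for *Siglech*, -2.69 for *C1qa*, -2.57 for *Cd33*, -2.55 for *Itgam*, -2.29 for *Tyrobp*, -2.27 for *Trem2* and -1.94 for *Vsir*. The smaller differences were -1.76 for *Kcnk6*, -1.71 for *Irf8*, -1.29 for *Csf3r*, -1.12 for *Alox5ap* and -1.03 for *Tgfbr1*.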

How the results depend on the processing

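All 95 falling genes stayed lower under each of the 16 alternatives that tested them, and *Csf1r* passed in each, between -4.69 and -4.59. The count of 95 lower clusters moved most in these settings. It was 24 by the analysis of variance without moderation, 59 (of 13278 clusters tested) with a filter on dim clusters, 41 with both tissues in 1 fit, 62 with the code number as a block and 34 with only the 4 arrays of code 07, where the lone FIRE -/- array was assumed to vary like the others. With 1 array left out it lay between 71 and 89. The count of higher clusters, 0 at first, was 1 with trend and robust variances (*Gfap*, adjusted p = 0.0127, against 0.142), 1 by analysis of variance (*Shb*), 1 with all transcript clusters, 1 with sex as labelled (*Rny1*), 3 with the code number as a block (*Lyz1*, *Naaladl1* and *Zg16*) and 0 to 4 with 1 array left out. The cluster called higher with all transcript clusters names no single gene (log2 change 2.08, adjusted p = 0.00498, limma). The count of clusters that differed between tissues was 12 to 41 with 1 array left out. Of the 95 genes the filter on dim clusters kept 58, and all 58 passed. The cause of the other moves was not tested, beyond the smaller number of arrays or clusters. Uncalled genes near 0 changed sign: *Siglecf* to 0.0217 with a second quantile normalization and 0.0168 with sex as labelled, *Csf2ra* to -0.0111 and *Cux1* to -0.0139 with that normalization, and *Cux1* to -0.0141 with array weights. With the code number as a block and with only code 07, *Csf2ra* was at -0.0572, *Cux1* at -0.0815 and *Bcl11b* at 0.132. With 1 array left out, *Siglecf* lay between -0.0963 and 0.0158, *Csf2ra* between -0.129 and 0.124, *Cux1* between -0.0587 and 0.0724, *Tgfb2* between -0.0601 and 0.202, *Tgfb3* between -0.00178 and 0.139, *Cd163* between -0.116 and 0.0172 and *Bcl11b* between -0.132 and 0.00454. No paired analysis was possible because the labels give the genotypes no shared replicate numbers. Signal over background limits the dim genes, for which RMA gives no detection call.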
